A study of Homo sapiens with 18 samples.

Results

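AP-1 is a family of basic leucine zipper (bZIP) transcription factors, and the expression of 10 of its genes was measured in U87MG cells with and without Erastin. The set held FOS, FOSB, FOSL1 and FOSL2 of the FOS family, JUN, JUNB and JUND of the JUN family, and the bZIP partners ATF3, MAFF and BATF3. Members were chosen by gene symbol, matched through the Ensembl identifiers of the deposited count table, which listed 58302 genes. All 10 were found in it. U87MG is an established human glioblastoma cell line, and all libraries came from this single line without a transgene or knockout. Ferroptosis is a cell death driven by iron and lipid peroxidation, and Erastin is used to start it by blocking system Xc-, a cystine importer. Total RNA was sequenced in 4 libraries, with 2 biological replicates of control cells under normal growth conditions and 2 of cells given Erastin at 10 μM for 72 h. The remaining 14 samples of the series, from chromatin assays, were not analysed here.

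A FOS protein binds DNA mainly as a partner of a JUN protein, whereas JUN proteins also pair with one another and with ATF proteins. These dimers read the TPA response element and the related cAMP response element (CRE), and MAP kinases raise both the transcription and the activity of several members. FOS and FOSB are early-response genes with short-lived transcripts, FOSL1 is known for its high level in mesenchymal glioma cells, and ATF3 is a general stress-response gene.

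Each library held between 29412656 and 31513519 counts on genes, and no library stood apart from its replicate by its total. Levels were expressed as CPM, the counts scaled to a common library size by the TMM method, or as TPM, which also divide by exon length and so allow genes to be compared. The mesenchymal markers VIM, CD44 and FN1 were abundant in every library, whereas GFAP had 41 to 81 counts, SOX2 at most 6 and S100B at most 2. The 8 glial and mesenchymal markers together made 8959 and 9346 CPM in control and 3145 and 3381 CPM in Erastin libraries. Most of this difference was FN1, at 5192 CPM in control and 496 CPM in Erastin-treated cells, and NES was called lower too (log2 fold change -3.62). Leukocyte markers summed to 101 and 103 CPM in control and 49.0 and 57.9 CPM in Erastin libraries, nearly all from CD74 (-0.94), with AIF1 and CD3E at 0 in all libraries and PTPRC at 1 count at most. The marker lists of endothelium, neurons, oligodendrocytes and epithelium each summed to at most 57.5 CPM in any library, and the epithelial genes CDH1, KRT5 and KRT14 were at 0. Neuronal markers, mainly SNAP25 and SYT1, made 52.7 and 57.5 CPM in control and 12.9 and 13.0 CPM in Erastin libraries, and endothelial ones 11.5 and 14.7 CPM in control and 4.21 and 4.77 CPM in Erastin libraries. Of the endothelial genes PECAM1 and TEK were called lower, whereas VWF was called higher, from 4 and 4 counts to 17 and 32 counts. The part of these markers in the results below was not tested.

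The AP-1 genes did not move as a block under Erastin. ATF3 rose 4.76-fold, FOS fell 6.57-fold, FOSB 3.34-fold and BATF3 2.25-fold, while FOSL1, FOSL2, JUN, JUNB and JUND changed by 1.51-fold or less. All 10 genes passed the filter on low counts, and edgeR's quasi-likelihood test gave each an adjusted p under 0.05, with 4 genes higher and 6 lower. Across all 16751 genes tested, 47% had an adjusted p under 0.05, 23.2% on the higher and 23.7% on the lower side. A gene was called when this p came with a log2 fold change of 1 or more in either direction. By this rule 4 of the 10 members were called, against 15.6% of all genes tested. ATF3 was the single member called higher, where the background was 6.24%, and FOS, FOSB and BATF3 were called lower, where it was 9.34%. In CPM, the Erastin and control libraries did not overlap for 10 of 10 members, and the same held for 73.6% of all genes. The 4 members with Erastin above compare with 36.7% of all genes, and the 6 with Erastin below with 36.9%. The median log2 fold change was -0.33 over the members and -0.0026 over all genes. The smallest two-sided p that exact permutation of 2 against 2 libraries allows is 0.333, and each edgeR p drew on a variance shared across genes. In bulk RNA, fewer cells expressing a gene and less RNA per cell cannot be told apart.

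**Figure D1:**
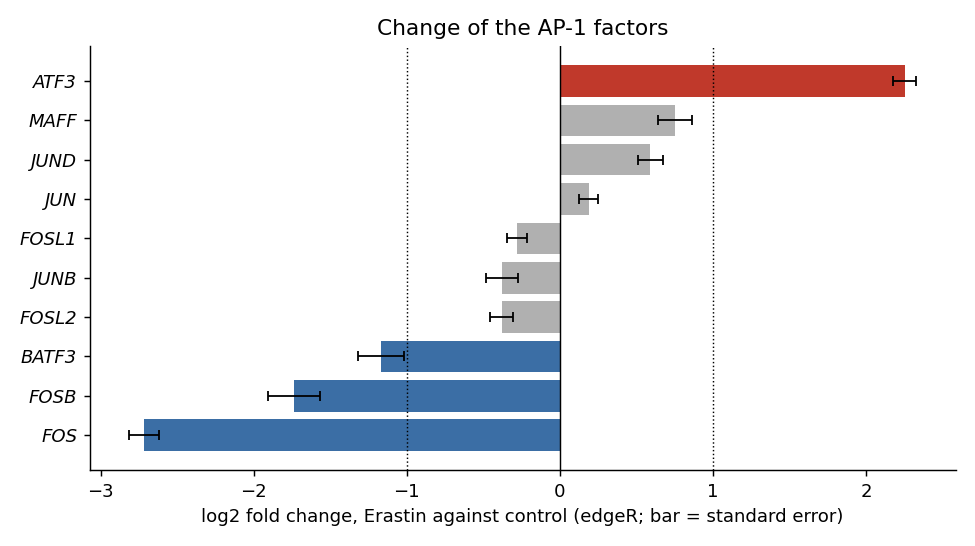
Log2 fold change of each AP-1 gene in Erastin-treated against control cells (horizontal axis, edgeR), with the standard error as bars and dotted lines at a 2-fold change. ATF3 (red) was called higher at 2.25, FOS, FOSB and BATF3 (blue) were called lower at -2.72, -1.74 and -1.17, and the 6 genes in grey lay inside the lines.

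FOS, the founding FOS protein and a textbook early-response gene, had the largest change of the set. FOS (ENSG00000170345) lies on the plus strand of chromosome 14 at chr14:75278774-75282230 of GRCh38. Its counts were 3161 and 3228 in control cells and 514 and 452 in Erastin-treated cells. Both Erastin libraries lay far below both control libraries. The level was 104 ± 0.377 CPM in control and 15.8 ± 1.98 CPM in Erastin-treated cells (SD, n = 2 each). FOS fell by 2.72 on the log2 scale (standard error 0.0972, edgeR adjusted p = 1.54e-09). By p-value FOS stood at place 47 among the 1564 genes called lower, and by size of change at place 264.

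FOSB, a close relative of FOS that answers many of the same signals, was the least abundant member. FOSB (ENSG00000125740) lies on the plus strand of chromosome 19 at chr19:45467995-45475179. The control libraries held 404 and 425 counts and the Erastin libraries 124 and 123, so the groups were well apart. The level was 13.4 ± 0.331 CPM in control and 4.03 ± 0.163 CPM in Erastin-treated cells (SD, n = 2 each), and FOSB fell by 1.74 on the log2 scale (standard error 0.169, edgeR adjusted p = 5.59e-06).

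FOS and FOSB fell together, and the stretches just before their start sites are shown because both carry the same pair of short motifs. Each is 205 bases of RefSeq GRCh38.p14 ending 1 base before the start site, on the plus strand, at chr14:75278623-75278827 for FOS and chr19:45467791-45467995 for FOSB. Capitals mark the CRE core TGACG and the TATA box TATAAA.
FOS: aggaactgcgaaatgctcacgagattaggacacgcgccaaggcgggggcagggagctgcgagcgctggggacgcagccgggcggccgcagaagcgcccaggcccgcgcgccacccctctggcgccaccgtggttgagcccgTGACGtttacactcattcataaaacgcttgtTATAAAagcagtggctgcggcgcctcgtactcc
FOSB: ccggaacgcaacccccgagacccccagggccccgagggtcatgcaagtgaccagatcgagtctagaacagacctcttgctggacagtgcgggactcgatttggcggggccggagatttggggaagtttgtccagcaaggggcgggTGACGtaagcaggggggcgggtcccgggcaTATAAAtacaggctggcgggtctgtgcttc
In FOS the core began at position -64 and the TATA box at -33 from the start site, and in FOSB they began at -60 and -30. Among the 35116 RefSeq windows of 300 bases (250 before the start site and 50 after it), 24.6% held the core on either strand and 11.5% held TATAAA. JUNB held both motifs too, with the core at -137 and TATAAA at -31, although its change was much smaller. CCATATTAG, part of the serum response element, was searched on both strands and occurred in 0 of the 10 member windows and in 0.0968% of all. An element more than 250 bases before the start site lies outside these windows, so the 0 says nothing about it. A match describes letters in this window and is not a measured binding site.

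FOSL1 and FOSL2, the FOS-related antigens that lack the strong activation domain of FOS, changed far less. FOSL1 (ENSG00000175592, minus strand, chr11:65892049-65900573) had 9872 and 9595 counts in control and 7501 and 8475 counts in Erastin-treated cells. The Erastin libraries lay below the controls without overlap. FOSL1 fell from 316 ± 9.89 to 260.3 ± 13.4 CPM (SD, n = 2 each), with a log2 fold change of -0.28 (standard error 0.0674, edgeR adjusted p = 0.00494). Without Erastin replicate 1 its adjusted p was 0.0916. FOSL2 (ENSG00000075426, plus strand, chr2:28392448-28417312) had 9902 and 8785 counts in control and 6791 and 7513 counts in Erastin-treated cells. Its groups did not overlap, although the control replicates were less alike than those of FOS. FOSL2 fell from 303 ± 29.02 to 233 ± 8.53 CPM (SD, n = 2 each), with a log2 fold change of -0.38 (standard error 0.0764, edgeR adjusted p = 0.00153). The 300-base window of FOSL2 was the only one among the members' windows with a full TPA response element, TGAGTCA, at position 5 after the start on the opposite strand, and 4.95% of all windows held it.

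The FOS family therefore shifted in make-up as well as in amount. Within a library the share of each member was taken from TPM, so that genes of different length could be compared. FOS made up 12.7% and 13.5% of the family in control and 3.11% and 2.45% in Erastin libraries. FOSL1 made up 68.3% and 68.8% in control and 77.9% and 78.8% in Erastin libraries, although its own level was lower. The groups did not overlap for either gene. FOSL2 held 18.1% and 16.6% in control and 18.6% and 18.4% in Erastin libraries, a difference of about the size of the spread between replicates in TPM (1.16 percentage points, or 4.27 from raw counts). FOSB made up at most 1.04% of the family in any library. In TPM, FOSL1 exceeded FOS 5.36-fold and 5.10-fold in control and 25.04-fold and 32.2-fold in Erastin libraries. Exact permutation tests of these shares gave p = 0.333, the smallest value possible with 2 against 2 libraries.

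JUN, a main DNA-binding partner of FOS proteins, was the most abundant member after Erastin and had the smallest edgeR log2 fold change. JUN (ENSG00000177606, minus strand, chr1:58780788-58784327) had 15363 and 14639 counts in control and 16892 and 17079 counts in Erastin-treated cells. The Erastin libraries lay just above the controls in CPM, at 565 and 544 against 502 and 471. Its log2 fold change was 0.19 (standard error 0.0649, edgeR adjusted p = 0.0333). It did not pass in 3 of the 4 fits that left out a library, with an adjusted p of 0.119 without control replicate 2, 0.240 without Erastin replicate 1 and 0.102 without Erastin replicate 2.

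JUNB, known to restrain JUN in many settings, was lower. JUNB (ENSG00000171223, plus strand, chr19:12791496-12793315) had 1735 and 1447 counts in control and 1133 and 1307 counts in Erastin-treated cells. In CPM the lower control library, at 46.6, lay close to the higher Erastin library, at 41.6. JUNB fell from 51.7 ± 7.19 to 39.7 ± 2.63 CPM (SD, n = 2 each), with a log2 fold change of -0.38 (standard error 0.107, edgeR adjusted p = 0.0121). Its adjusted p was 0.0918 without control replicate 1 and 0.0911 without Erastin replicate 1. JUNB shares 259 bases of exon, 14.2% of its own, with HOOK2 on the opposite strand, and the counting used no strand and left out reads that matched both genes. HOOK2 had 950 and 981 counts in control and 1012 and 1068 counts in Erastin-treated cells. FOSB, FOSL2 and MAFF overlap genes on the opposite strand too, with 0 shared exon bases.

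JUND, the JUN protein that is often expressed steadily and linked to resistance to oxidative stress, rose. JUND (ENSG00000130522, minus strand, chr19:18279760-18281622) had 4282 and 4141 counts in control and 6636 and 5968 counts in Erastin-treated cells. Both Erastin libraries lay above both controls, and they differed more from each other than the controls did. JUND rose from 137 ± 4.76 to 206 ± 22.6 CPM (SD, n = 2 each), with a log2 fold change of 0.59 (standard error 0.0812, edgeR adjusted p = 9.19e-05), which is below the 2-fold threshold.

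Within the JUN family the share of JUND was larger under Erastin and the shares of JUNB and JUN were smaller, although the level of JUN itself was higher. JUND made up 30.3% and 31.1% of the family TPM in control and 39.8% and 36.6% in Erastin libraries. JUNB went from 12.6% and 11.1% to 6.95% and 8.21%, and JUN from 57.2% and 57.8% to 53.3% and 55.2%. The JUNB difference was -4.26 percentage points in TPM and -2.65 from raw counts. The groups did not overlap for any of these shares, with an exact permutation p of 0.333 for each, again the smallest possible. JUN exceeded JUND 1.89-fold and 1.86-fold in control and 1.34-fold and 1.51-fold in Erastin libraries.

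**Figure D2:**
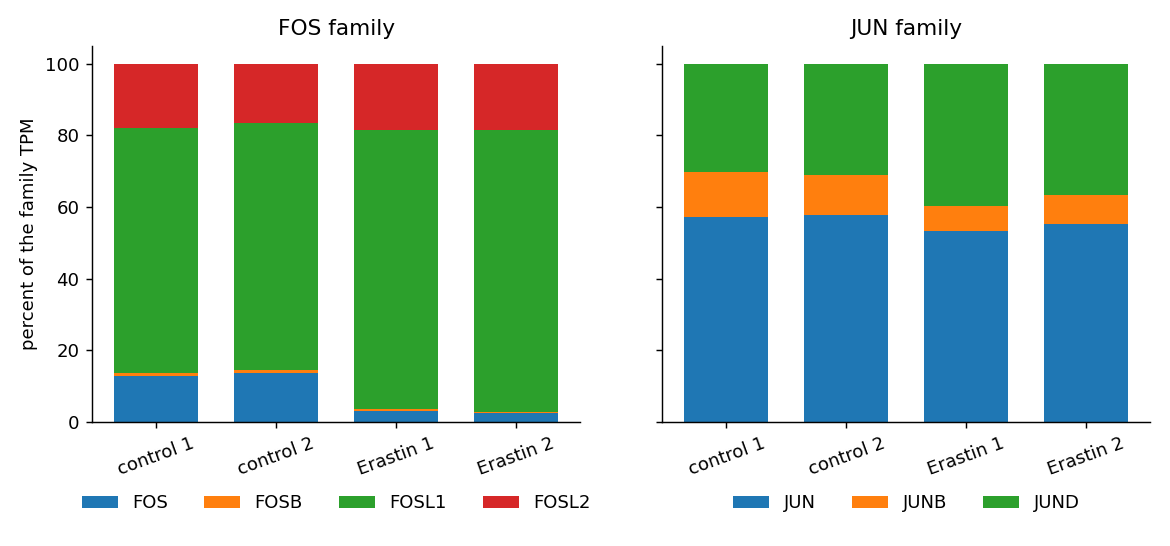
Share of each gene in the summed TPM of its family (vertical axis, percent), for the FOS family (left) and the JUN family (right), with 1 bar per library. FOS went from 12.7% and 13.5% of its family in control to 3.11% and 2.45% in Erastin libraries, and JUND from 30.3% and 31.1% to 39.8% and 36.6%.

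ATF3, a stress-induced factor that pairs with JUN proteins and often represses transcription as a homodimer, had the largest rise of the set. ATF3 (ENSG00000162772) lies on the plus strand of chromosome 1 at chr1:212565334-212620777. Its counts were 850 and 852 in control cells and 3869 and 4197 in Erastin-treated cells. The control replicates were nearly alike and both Erastin libraries stood far above them. The level was 27.6 ± 0.263 CPM in control and 131 ± 2.99 CPM in Erastin-treated cells (SD, n = 2 each). ATF3 rose by 2.25 on the log2 scale (standard error 0.0752, edgeR adjusted p = 1.01e-09). By p-value ATF3 stood at place 18 among the 1046 genes called higher, and by size of change at place 296. In TPM, the ratio of ATF3 to FOS was 0.216 and 0.212 in control, and ATF3 exceeded FOS 6.03-fold and 7.44-fold in Erastin libraries.

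MAFF is a small MAF protein, which has no activation domain of its own and pairs with CNC factors such as NFE2L2 at antioxidant response elements. MAFF (ENSG00000185022, plus strand, chr22:38200767-38216511) had 699 and 617 counts in control and 1078 and 1127 counts in Erastin-treated cells. The Erastin libraries lay above the controls and were nearly identical in CPM. MAFF rose from 21.4 ± 2.12 to 35.9 ± 0.122 CPM (SD, n = 2 each), with a log2 fold change of 0.75 (standard error 0.110, edgeR adjusted p = 0.000146), which is below the 2-fold threshold.

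BATF3, a short bZIP protein known from dendritic cells that pairs with JUN proteins, was lower. BATF3 (ENSG00000123685, minus strand, chr1:212686418-212699985) had 516 and 492 counts in control and 233 and 212 counts in Erastin-treated cells. The groups were well apart. BATF3 fell from 16.4 ± 0.734 to 7.27 ± 0.737 CPM (SD, n = 2 each), with a log2 fold change of -1.17 (standard error 0.150, edgeR adjusted p = 5.31e-05). BATF3 and ATF3 lie on the same arm of chromosome 1 and moved in opposite directions.

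The stretches before the start sites of JUND, MAFF and ATF3 are shown because these genes, with JUN, were the members that rose. Each is 205 bases of RefSeq GRCh38.p14, at chr19:18281623-18281827 on the minus strand for JUND, and on the plus strand at chr22:38201789-38201993 for MAFF and chr1:212565202-212565406 for the upstream start of ATF3. Capitals mark the full CRE TGACGTCA and the antioxidant response element core TGACNNNGC on either strand, including the overlapping TGACG.
JUND: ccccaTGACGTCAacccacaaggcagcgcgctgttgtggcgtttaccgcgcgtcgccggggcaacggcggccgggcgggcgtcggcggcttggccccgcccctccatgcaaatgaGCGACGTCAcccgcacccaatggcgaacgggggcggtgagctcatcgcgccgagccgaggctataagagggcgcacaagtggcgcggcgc
MAFF: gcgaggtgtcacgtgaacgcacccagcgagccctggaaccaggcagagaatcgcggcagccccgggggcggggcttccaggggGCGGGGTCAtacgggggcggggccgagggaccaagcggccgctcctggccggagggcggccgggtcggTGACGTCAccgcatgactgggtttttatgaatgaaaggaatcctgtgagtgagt
ATF3: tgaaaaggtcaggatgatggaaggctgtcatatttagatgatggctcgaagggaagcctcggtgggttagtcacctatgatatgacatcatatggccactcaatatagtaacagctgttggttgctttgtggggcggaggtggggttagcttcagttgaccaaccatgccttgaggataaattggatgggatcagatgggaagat
JUND held the full CRE at -200 and MAFF at -54. These were 2 of the 10 member windows with this element, against 1.85% of all windows. The antioxidant response element core, which 13.3% of all windows held, also occurred in JUND and MAFF alone among the members with a window. It lay at -90 in JUND, at -230 outside the printed stretch of JUND, and at -122 in MAFF. The copy at -90 in JUND overlaps a TGACG on the same strand. TGATGCAA, the element read by ATF4, occurred in 0 of the 10 member windows and in 0.866% of all. No motif searched had a match in the printed stretch of ATF3. The ATF3 windows covered only chr1:212565157-212565456 and chr1:212614768-212615067. The rest of this gene, including any other start site, was not searched, so these results say nothing about it. Windows were matched by symbol for 8 of the 10 members, with 2 windows each for ATF3 and MAFF and none for FOSL1 and BATF3. Of these 10 windows, 7 held TGACG.

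The order of the members by TPM changed at its top, in its middle and in its lower part, where MAFF passed BATF3. In control cells FOSL1 (578 ± 0.758 TPM, SD, n = 2) stood first, followed by JUN (475 ± 7.27), JUND (253 ± 1.23), FOSL2 (146 ± 9.62), FOS (111 ± 3.72) and JUNB (97.9 ± 10.7). ATF3 (23.6 ± 0.483), BATF3 (20.8 ± 0.309), MAFF (13.1 ± 0.910) and FOSB (8.37 ± 0.457) formed a lower tier. The libraries of neighbouring genes did not overlap in control cells. In Erastin-treated cells JUN (617 ± 25.3 TPM) stood above FOSL1 (543 ± 20.4) and JUND (436 ± 53.8). ATF3 (128 ± 1.13) reached the level of FOSL2 (128 ± 2.91), and the libraries of these 2 genes overlapped. JUNB (86.0 ± 4.49) and MAFF (25.2 ± 0.437) came next, and FOS (19.2 ± 2.68) dropped below MAFF, with BATF3 (10.6 ± 1.22) and FOSB (2.86 ± 0.156) last.

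The summed level of the 10 genes hardly differed in CPM, at 1530 and 1424 in control and 1497 and 1478 in Erastin libraries. In TPM it was 1745 and 1708 in control and 2036 and 1958 in Erastin libraries. The TPM scale itself lay higher under Erastin, with a median log2 ratio of 0.19 over 16712 genes with a value above 0 in both groups. The FOS family sum under Erastin was 0.697 times the control sum in CPM and 0.823 times in TPM, and the JUN family sum was 1.18 times in CPM and 1.38 times in TPM. These sums are given without a test. Within the total, ATF3 went from 1.33% and 1.40% to 6.26% and 6.59% of the TPM, and FOS from 6.19% and 6.63% to 1.04% and 0.885%.

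**Figure D3:**
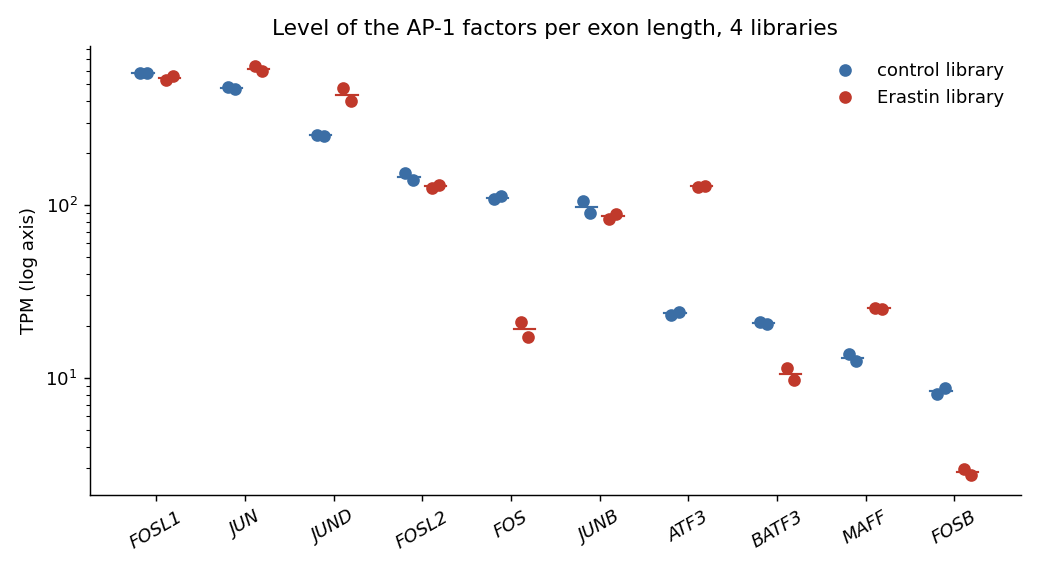
TPM of each AP-1 gene (vertical log axis) in 2 control (blue) and 2 Erastin (red) libraries, 1 point per library with a line at the group mean, ordered by the control mean. FOS went from 111 to 19.2 TPM and ATF3 from 23.6 to 128 TPM, whereas FOSL1 went from 578 to 543 TPM.

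The profiles most like those of ATF3 and FOS were found by Euclidean distance between log2 CPM values centred on the control mean, over 4 libraries. For ATF3 the nearest genes were IL1A (an inflammatory cytokine, distance 0.0670), TNFRSF10D (a decoy receptor for TRAIL, 0.0719) and SERPINB2 (a serine protease inhibitor, 0.111). Their log2 fold changes were 2.24, 2.22 and 2.20. For FOS they were OLFML2A (an olfactomedin-like protein, 0.101), LRRN3 (a leucine-rich repeat protein, 0.109) and CCNA2 (cyclin A2 of dividing cells, 0.110), with log2 fold changes of -2.72, -2.64 and -2.79. With 4 libraries, nearness says little more than a fold change of like size.

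Among 20 other bZIP genes, 18 were tested. The list had 4 genes called higher and 1 called lower, where 6.24% and 9.34% of all genes were called. With an adjusted p under 0.05 alone, 8 were higher and 2 lower, where 23.2% and 23.7% of all genes were, and the median log2 fold change was 0.46 against -0.0026 for all genes. ATF4, the main factor of the integrated stress response and an activator of ATF3, rose from 6657 and 7747 counts to 28236 and 29826 counts (log2 fold change 2.02, edgeR adjusted p = 2.09e-09). DDIT3, its target CHOP, rose from 375 and 410 to 958 and 1112 counts (1.40, adjusted p = 1.55e-06). JDP2, a repressor that pairs with JUN, rose from 462 and 348 to 1103 and 1106 counts (1.45, adjusted p = 5.32e-06). Of the other small MAF genes, MAFK rose by a log2 fold change of 1.14 and MAFG by 0.81, next to the 0.75 of MAFF. Their CNC partners NFE2L1 and NFE2L2 rose by 0.60 and 0.74, both below the 2-fold threshold. NFE2, the one gene called lower, had 15 and 19 counts in control and 1 and 4 counts in Erastin-treated cells (-2.70, adjusted p = 0.0249). The call was lost under 7 of 12 alternative settings, with an adjusted p of 0.0875 in DESeq2, and BATF had 0 counts in every library.

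The kinases and factors upstream of AP-1 differed in both directions. Of 29 genes 28 were tested, with 0 called higher and 4 called lower, against 6.24% and 9.34% of all genes, and a median log2 fold change of 0.08. Without the 2-fold threshold, 8 of them were higher and 11 lower, against 23.2% and 23.7% of all genes, all of the higher ones by less than 2-fold. MAP2K3, a kinase that activates p38, rose by 0.83 (edgeR adjusted p = 2.40e-06). MAP2K6, another activator of p38, fell from 76 and 83 counts to 14 and 4 counts (-3.11, adjusted p = 0.000439), and was not tested where 10 counts were required in every library. MAP3K5, the stress kinase ASK1, fell by 1.48 on the log2 scale, RPS6KA5, the kinase MSK1 that acts on FOS chromatin, fell by 1.42, and MAPK10, the neuronal JNK3, fell by 1.35. MAP2K2, an abundant kinase that activates ERK, had a log2 fold change of 0.01 and did not pass (adjusted p = 0.940). Kinase activity was not measured.

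Genes that textbooks give as AP-1 targets changed in both directions. Of 26 listed genes 21 were tested, with 7 called higher and 2 called lower, where 6.24% and 9.34% of all genes were called, and a median log2 fold change of 0.46. Without the 2-fold threshold, 12 were higher and 5 lower, where 23.2% and 23.7% of all genes were. The called rises included the secreted factors CXCL8, IL6, IL11, LIF and SPP1. CXCL8, the neutrophil chemokine interleukin-8, rose from 3329 and 3410 counts to 20667 and 21395 counts (2.65, edgeR adjusted p = 1.98e-10). IL6 rose by a log2 fold change of 1.27, IL11 by 1.34, LIF by 1.15 and SPP1 by 1.06, although SPP1 was at 0.95 without control replicate 1. MMP3 was called higher without control replicate 2 (1.02), and the targets called higher numbered from 6 to 8 over the fits without 1 library. MT2A, a metallothionein with near-identical relatives among which reads can be lost, rose by 1.31. IVL, an epithelial envelope gene, had 7 and 4 counts in control and 26 and 41 counts in Erastin-treated cells (2.58, adjusted p = 0.00605), and was not called without Erastin replicate 2 (adjusted p = 0.101).

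The called falls among these targets were HMGA1 and CCL2. HMGA1, a chromatin protein of proliferating cells, fell from 24572 and 19360 counts to 4672 and 5450 counts (-2.11, edgeR adjusted p = 2.55e-08). CCL2, a monocyte chemokine, fell from 136 and 247 to 38 and 50 counts (-2.11, adjusted p = 0.000211). VIM, an abundant intermediate filament gene, fell by 0.60 on the log2 scale (adjusted p = 1.27e-05). The collagenase gene MMP1, a classical target, did not pass, with 100 and 135 counts in control and 101 and 118 counts in Erastin-treated cells (adjusted p = 0.794).

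Other early-response genes were found on both sides. Of 19 listed genes 17 were tested, with 1 called higher and 1 called lower, against 6.24% and 9.34% of all genes, and a median log2 fold change of -0.29. Without the 2-fold threshold, 5 were higher, 6 lower and 6 did not pass, where 23.2% of all genes were higher and 23.7% lower. BTG2, an antiproliferative gene, rose from 78 and 78 counts to 1023 and 1175 counts (3.82, edgeR adjusted p = 1.84e-09). DUSP6, a phosphatase of ERK whose transcription follows ERK activity, fell from 1750 and 1822 to 576 and 660 counts (-1.52, adjusted p = 1.50e-07). EGR1 fell by 0.86 on the log2 scale, and DUSP1 rose by 0.95. DUSP1 was called higher without control replicate 2 (1.01) and IER3 without Erastin replicate 2 (1.00). KLF6 was at 0.13 (adjusted p = 0.130). CCN1 rose by 1.00, just short of the threshold, and was called in 6 of 12 alternative settings. NR4A1 and NR4A2, orphan nuclear receptors, were at -0.93 and -0.80 and were called lower in some fits that left out 1 library.

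Genes of dividing cells were lower under Erastin, as were FOS, FOSB and BATF3. All 16 listed genes were tested, 14 were called lower against 9.34% of all genes, 16 of 16 were lower with an adjusted p under 0.05 against 23.7%, and the median log2 fold change was -2.65. Their summed level was 1989 and 1913 CPM in control and 376 and 373 CPM in Erastin libraries. CDC20, PLK1, MKI67 and CCNB1, all genes of mitosis or of cycling cells, fell by 4.62, 4.51, 3.89 and 3.82 on the log2 scale. PCNA and TYMS, which serve DNA replication, fell by 0.49 and 0.50. The part of dividing cells in the AP-1 results was not tested.

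**Figure D4:**
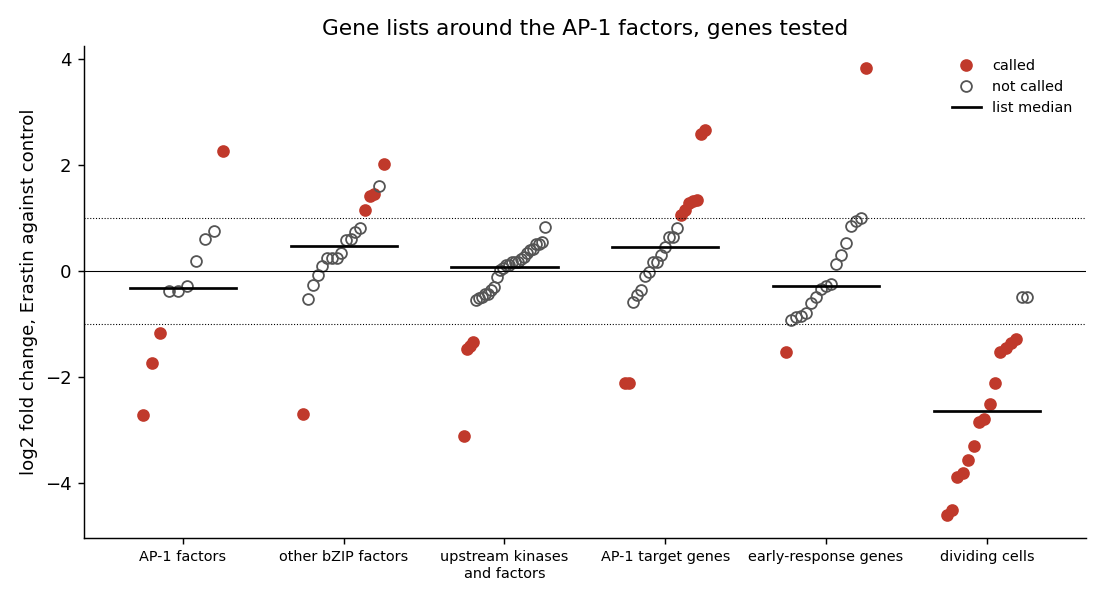
Log2 fold change of every tested gene (vertical axis, edgeR) in 6 gene lists, with called genes as filled points, genes not called as open points, a line at each list's median and dotted lines at a 2-fold change. The medians were -0.33 for the AP-1 genes, 0.46 for other bZIP genes, 0.08 for upstream kinases and factors, 0.46 for target genes, -0.29 for early-response genes and -2.65 for dividing cells.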

How the data were processed

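Total RNA of U87MG cells was measured in 4 libraries, grouped as 2 control and 2 Erastin by the labels. The authors deposited raw read counts per gene, not normalized. Per the file headers these were written by featureCounts 2.0.3 with the Ensembl release 90 annotation of GRCh38, unstranded and without reads that matched several genes or places, and the 2 reads of a pair may have been counted separately. The submitters' processing notes name HISAT2 2.1.0. A test of the deposited counts for decimals, as estimated counts would have, found whole numbers, and rounding changed 0 of them. The deposited exon length of each gene served to compute TPM.

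The fit used edgeR 4.0.16 under R 4.3.3 (low-count filter filterByExpr at a minimum count of 10, TMM, quasi-likelihood test, two-sided, Benjamini-Hochberg over 16751 genes). The biological coefficient of variation was 10.3%. Calls used the study's thresholds of 1 for the size of the log2 fold change and 0.05 for the adjusted p. The study's own tool, DESeq2 (here 1.42.0), was an alternative, beside other scalings, filters, a replicate block, thinning, halved counts and each library left out. The fit was tested on simulated data. P-values set the group difference against the spread between these libraries, with a variance shared across genes. PCR duplicates were not marked by molecular identifiers. Named genes were all members, in each other list up to 4 called genes with the largest change and 2 abundant others, and the 3 nearest profiles of ATF3 and FOS. MAFK, NFE2L2, MAP2K3, the remaining called targets, MMP1, MMP3, EGR1, IER3, CCN1, NR4A1 and NR4A2 were named after their values were seen. Some genes that the rule names are not reported here. Members and lists were chosen with earlier results of these data known. Promoter windows came from RefSeq GRCh38.p14. Chromatin assays were not analysed here.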

Additional observations from a re-analysis of the deposited data

How the results depend on the processing

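Over 12 alternative settings the members called stayed at 1 higher and 3 lower, and no log2 fold change of a member changed sign. Without Erastin replicate 1, FOSL1 was at -0.23. JUN ran from 0.13 to 0.23 and JUNB from -0.52 to -0.23 over the fits without 1 library, and FOSL1 from -0.33 to -0.23, with adjusted p above 0.05 in the fits named with their results. In those fits the lone library of a group was assumed to vary like the other group. The cause was not tested. Scaling by library totals raised the median of all genes by 0.05 on the log2 scale.

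The other bZIP genes called lower went from 1 to 0 in DESeq2, with 10 counts in every library and with counts halved, and was 0 in each fit without 1 library. NFE2 was too low to be tested with 10 counts in every library or with halved counts. The early-response genes called higher numbered 2 in DESeq2, with RLE size factors and with library totals, and from 1 to 3 without 1 library. Those called lower numbered from 1 to 3 without 1 library.

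With a replicate block the early-response genes called higher numbered 2 (CCN1 added at a log2 fold change of 1.00), and 1039 genes were called higher and 1568 lower in all, against 1046 and 1564. Same-numbered libraries did not deviate together (correlation 0.0203), so the numbers give no pairing, and the block changed no other call of the lists.

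With raw counts in place of TPM, the Erastin minus control difference in percentage points of the FOS family was -11.0 for FOS (-10.3 in TPM), -1.04 for FOSB (-0.580), 7.78 for FOSL1 (9.76) and 4.27 for FOSL2 (1.16), and of the JUN family -2.65 for JUNB (-4.26). Of all members it was -5.97 for FOS, -0.641 for FOSB, -3.90 for FOSL1, -4.84 for FOSL2, 4.28 for JUN, 4.58 for JUND, 6.97 for ATF3, 0.972 for MAFF and -0.619 for BATF3. No share difference changed sign.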
